A study of Mus musculus with 67 samples.

Results

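The genes described here are 8 targets of canonical Wnt signalling that also feed back on the pathway or carry its transcription: Axin2, Nkd1, Notum, Znrf3, Rnf43, Sp5, Tcf7 and Lef1. They were chosen by name, and all 8 are among the 29579 genes of the expression table. Their levels were followed through 49 libraries of mouse intestinal organoids in 10 culture conditions and, separately, 18 libraries of intestinal crypts in 9 groups of 2. RNA was sequenced in bulk, and values are given in TPM, a unit that divides reads by transcript length and scales each library to a common sum.

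Canonical Wnt signalling controls the stability of beta-catenin. Without a Wnt ligand, a destruction complex built on axin and containing the kinase GSK3 marks beta-catenin for degradation, and with a ligand on the Frizzled and LRP receptors, or with GSK3 inhibited, beta-catenin accumulates and acts on its targets with TCF/LEF proteins. Many of these targets are brakes. Axin2 rebuilds the destruction complex, Nkd1 binds Dishevelled, Notum removes the lipid from Wnt ligands outside the cell, and Znrf3 and Rnf43 are membrane ubiquitin ligases that clear Frizzled from the surface unless R-spondin removes them. Sp5 is a zinc finger repressor at Wnt targets, and Tcf7 and Lef1 are DNA-binding partners of beta-catenin. In the intestine this signalling maintains the stem cells at the crypt base.

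The organoids were grown from crypts of the proximal small intestine of Lgr5-EGFP-IRES-creERT2 or C57BL/6 mice aged 6 to 12 weeks, and the labels do not tell which strain gave which library. The 8C medium (7 libraries) contained the histone deacetylase inhibitor VPA (500 µM), the EZH2 inhibitor EPZ6438 (2 µM), which blocks a histone methyltransferase, LDN193189 (0.2 µM), the GSK3 inhibitor GSK3iXV (0.1 µM), Pexmetinib (1 µM), EGF (50 ng/mL), bFGF (20 ng/mL) and conditioned medium with R-Spondin 1 at 10%. Variants lacked VPA (8C -V, 6 libraries), EPZ6438 (8C -E, 7), both (8C -VE, 7), the GSK3 inhibitor (8C -GSK3i, 3), Pexmetinib (8C -Pex, 3), EGF (8C -EGF, 3) or bFGF (8C -bFGF, 3). The ENR medium (7 libraries) contained EGF (50 ng/mL), noggin (100 ng/mL) and R-Spondin 1 (500 ng/mL), and ENR +VE (3 libraries) added VPA and EPZ6438 at doses not given in the sources used here. R-Spondin 1 was therefore present in every organoid condition, the GSK3 inhibitor in every 8C medium other than 8C -GSK3i, and no GSK3 inhibitor in ENR media. Crypts came from 8-week-old female mice, C57BL/6 by a figure legend of the study. The mice were either not irradiated (normal crypt) or 1, 2, 3 or 5 days after 12 Gy (IR), with or without daily gavage of 40 mg/kg VPA and 0.6 mg/kg EPZ6438 (IR+VE).

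Axin2 lies on chromosome 11 (chr11:108920349-108950783, plus strand), as do Notum (chr11:120653788-120661175, minus strand), Znrf3 (chr11:5276324-5444847, minus strand), Rnf43 (chr11:87662722-87735539, plus strand) and Tcf7 (chr11:52252371-52283014, minus strand). Nkd1 lies at chr8:88521354-88594884, Sp5 at chr2:70474923-70477729 and Lef1 at chr3:131110471-131224356, all on the plus strand (mm10, GENCODE M21). Antisense genes share exon bases with Axin2 (209 bases, Gm11670), Notum (708 bases, Notumos, and 210, Myadml2os) and Lef1 (1208 bases, Gm43352), and the counting is not stated to use strand, so reads of such pairs cannot be told apart in those stretches. The antisense genes that the table lists reached 3.33 TPM for Gm11670, 0.908 TPM for Notumos and 0.0481 TPM for Myadml2os in any library.

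The 250 bases before a start site are printed for 3 members (RefSeq, GRCm38.p6, plus strand of each gene, 5′ to 3′). Axin2 was picked because its difference between the 2 main media was near 0. Nkd1 was called there and on leaving out both epigenetic inhibitors. Sp5 is the member whose window holds the TCF/LEF letters searched for. Capitals mark a match to CTTTGAT or its reverse complement ATCAAAG.
Axin2 (chr11:108920099-108920348): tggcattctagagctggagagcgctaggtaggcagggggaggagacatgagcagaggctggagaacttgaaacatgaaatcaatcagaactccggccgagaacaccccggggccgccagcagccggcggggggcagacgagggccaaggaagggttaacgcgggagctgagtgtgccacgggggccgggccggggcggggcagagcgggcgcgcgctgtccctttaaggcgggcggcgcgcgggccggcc
Nkd1 (chr8:88527383-88527632): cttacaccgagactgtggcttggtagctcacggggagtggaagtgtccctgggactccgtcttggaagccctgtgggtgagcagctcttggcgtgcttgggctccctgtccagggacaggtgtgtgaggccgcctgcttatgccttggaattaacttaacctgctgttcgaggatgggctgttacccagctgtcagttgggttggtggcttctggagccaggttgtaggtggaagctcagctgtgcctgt
Sp5 (chr2:70474673-70474922): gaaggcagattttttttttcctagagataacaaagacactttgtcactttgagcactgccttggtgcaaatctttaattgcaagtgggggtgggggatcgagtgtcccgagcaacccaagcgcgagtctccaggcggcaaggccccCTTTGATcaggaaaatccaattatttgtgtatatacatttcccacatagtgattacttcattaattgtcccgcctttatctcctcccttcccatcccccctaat
The windows of Axin2 and Sp5 end where the GENCODE gene models begin, and that of Nkd1 lies inside a longer GENCODE model of the gene, between its exons. Promoters were found for 6 of the 8 members, and of all their windows only that of Sp5 held CTTTGAT on either strand, once, with its first base at position -104 from the start site. The match is part of the longer CTTTGATC, and the Sp5 window holds 4 copies of the shorter CTTTG that both contain. Among 32851 promoter windows of the same 250 bases, 3.205% hold CTTTGAT, 0.801% CTTTGATC and 48.577% CTTTG on either strand. CpG dinucleotides were at 0.860 of the number expected from base composition in the Axin2 window (24 of them), 0.462 in that of Sp5 and 0.294 in that of Nkd1 (6 each), with a median of 0.374 over all windows. These matches describe the letters of each window and were not tested as sites.

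The column sums of the organoid libraries were 983801 to 988144 and those of crypts 819346 to 910935, mitochondrial genes took 1.52% to 6.64% of the organoid sums and 10.6% to 48.4% of the crypt sums, and organoids and crypts were not compared by level. The 6 epithelial markers listed (among them Epcam and Cdx2) averaged at least 1 TPM in all 19 groups. Of 10 markers of T and NK cells, 9 stayed at or below 0.617 TPM in every organoid library, the exception being Lck (up to 15.1 TPM), whereas crypts held up to 32.9 TPM of Cd3g and 67.6 TPM of Cd7. TPM keeps no number of reads, so the depth and the counting error of each library are unknown. The legends of the study count mice as replicates for expression in organoids and in day 3 crypts, but the labels tie no library to a mouse and some conditions hold more libraries than mice are stated. The p-values therefore measure the spread between these libraries, part of which may be technical. In bulk RNA, fewer cells of a type and less RNA per cell cannot be told apart.

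The members spanned several orders of expression in organoids (the plot of the 8 genes by condition). The medians over the 49 libraries were 109 TPM for Axin2, 99.9 TPM for Rnf43, 67.7 TPM for Sp5 and 41.9 TPM for Tcf7. Znrf3 had a median of 10.7 TPM, Nkd1 of 4.89 TPM, Notum of 0.597 TPM and Lef1 of 0.315 TPM. Axin2 and Znrf3 varied least over conditions, with a ratio of the highest to the lowest condition mean of 2.06 and 1.63, and Nkd1 spanned 26.3-fold. For 7 of the 8 genes the highest condition mean was that of 8C -EGF, and for Rnf43 it was that of 8C -bFGF.

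**Figure D1:**
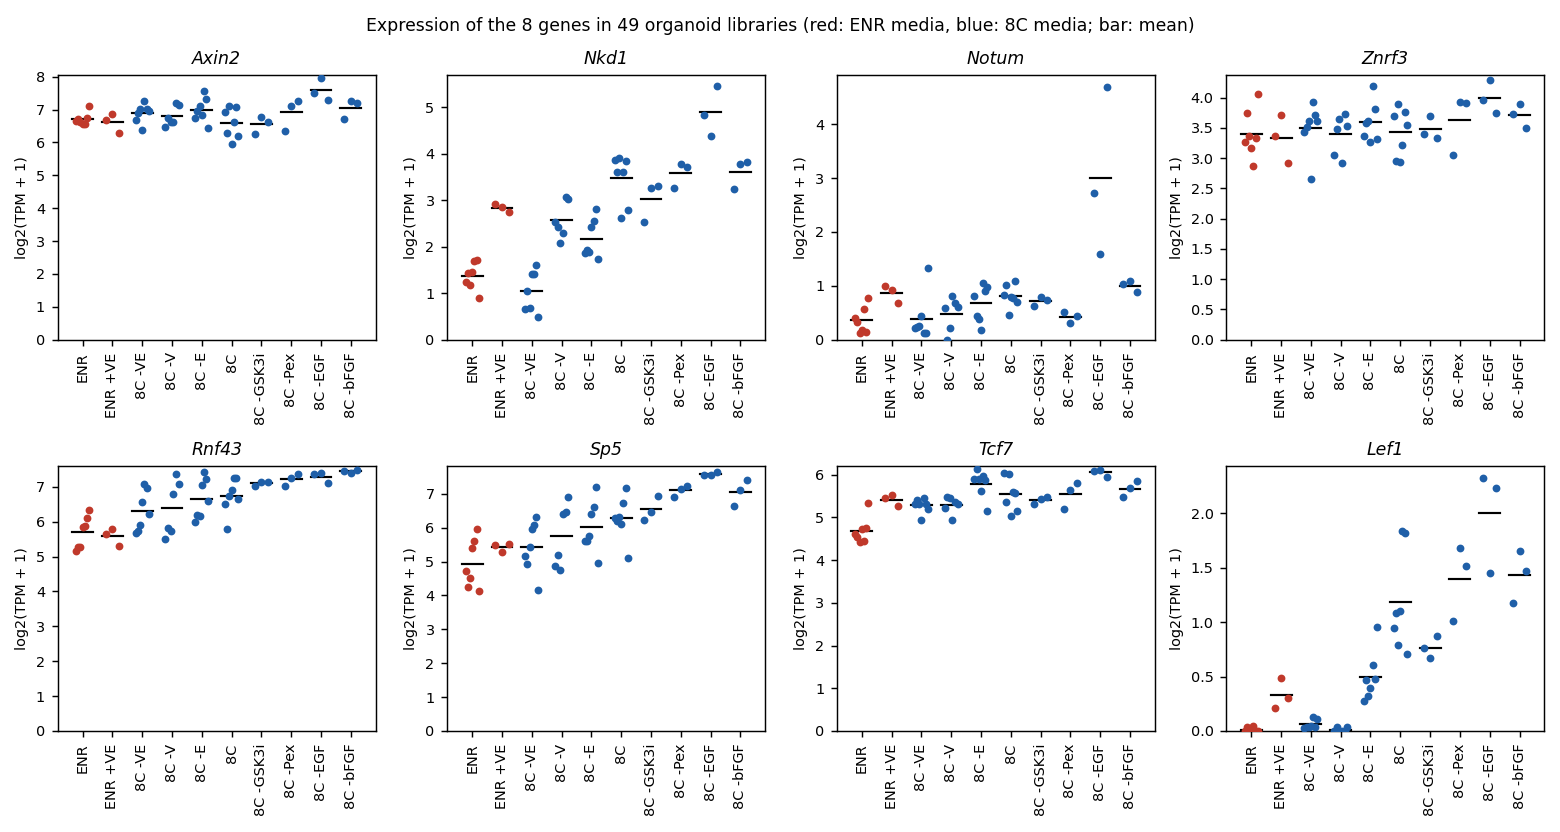
Expression of each gene, as log2(TPM + 1) on the vertical axis, in every organoid library (points) of 10 conditions, with bars at condition means. Axin2 and Znrf3 vary least across conditions, Nkd1 and Lef1 are low in ENR and 8C -VE, and 8C -EGF is highest for 7 of the 8 genes.

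The first comparison asked how the 8C condition differed from the standard ENR condition. Nkd1, Rnf43 and Sp5 were higher in 8C organoids, whereas no difference was detected for Axin2 and Znrf3. Differences are in log2(TPM + 1), fitted by limma over all genes whose compared libraries average 1 TPM or more. To be called, a gene needed an adjusted p (Benjamini-Hochberg) under 0.05 and a 2-fold change or more. Of the 8 members, 6 could be tested and 3 were called, all higher in 8C, where 11.9% of all 12665 genes tested were called higher and 3.31% lower.

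Axin2, the scaffold of the negative feedback loop, ranged from 61.5 to 138 TPM (median 98.2) in 8C and from 93.9 to 137 TPM (median 98.9) in ENR. The groups overlapped, with the ENR libraries inside the 8C range, and the log2 difference was -0.11 (95% interval -0.48 to 0.26, adjusted p = 0.679). Nkd1 ranged from 5.15 to 14.1 TPM (median 11.3) in 8C and from 0.871 to 2.26 TPM (median 1.68) in ENR. Every 8C library was above every ENR library, as for 13.9% of genes, and Nkd1 rose by 2.10 on the log2 scale (SE 0.22, adjusted p = 1.4e-06).

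Among the ligand and receptor brakes, Rnf43 ranged from 54.6 to 153 TPM (median 105) in 8C and from 34.5 to 79.4 TPM (median 56.7) in ENR, with overlap. Rnf43 rose by 1.04 (SE 0.23, adjusted p = 0.00227), just over the 2-fold limit, and the call was lost without ENR replicate 1, 2 or 3 or 8C replicate 5 or 6, where the differences were at least 0.946. Its partner Znrf3 averaged 10.1 ± 2.89 TPM (SD, n = 7) in 8C and 9.91 ± 3.14 TPM (SD, n = 7) in ENR, a log2 difference of 0.03 (95% interval -0.40 to 0.46, adjusted p = 0.932). Notum was under the minimum for testing, with a mean of 0.769 ± 0.251 TPM (SD, n = 7) in 8C and 0.299 ± 0.228 TPM (SD, n = 7) in ENR. With no minimum mean the Notum difference was 0.45 (adjusted p = 0.0144), less than 2-fold.

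Of the transcription factors, Sp5 ranged from 33.1 to 144 TPM (median 77.1) in 8C and from 16.5 to 61.4 TPM (median 25.6) in ENR. The groups overlapped, and Sp5 rose by 1.33 (SE 0.32, adjusted p = 0.00386). Tcf7 averaged 47.0 ± 13.1 TPM (SD, n = 7) in 8C and 25.4 ± 6.62 TPM (SD, n = 7) in ENR, a difference of 0.85 (SE 0.18) that passed the adjusted p (0.00134) but not the 2-fold limit, although the difference within replicate numbers 1 to 3 was 1.29 and was called. Lef1 was listed at 0 in 5 of 7 ENR libraries and at no more than 0.0327 TPM in the others, against 0.631 to 2.58 TPM (median 1.12) in 8C. No 8C library fell within the ENR range, and with no minimum mean, where 7.8% of 20756 genes were called higher, the Lef1 difference of 1.17 was called (adjusted p = 9.0e-05). Because 1 TPM was added before the logarithm, the differences of Lef1 and Notum understate their change.

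Markers of epithelial cell types differed between the media as well. The summed level of 6 Paneth cell markers was 1174 to 4760 TPM in 8C and 11549 to 13994 TPM in ENR, and that of 6 crypt base stem cell markers 885 to 2338 TPM in 8C and 2483 to 3876 TPM in ENR. All 6 markers of each list averaged at least 1 TPM in both conditions, and of the stem cell markers only Olfm4 was called (-6.82). Olfm4 carried the lower sum, and the median difference of the 6 stem cell markers was 0.39, in the other direction. Their part in the differences of the members was not tested.

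**Figure D2:**
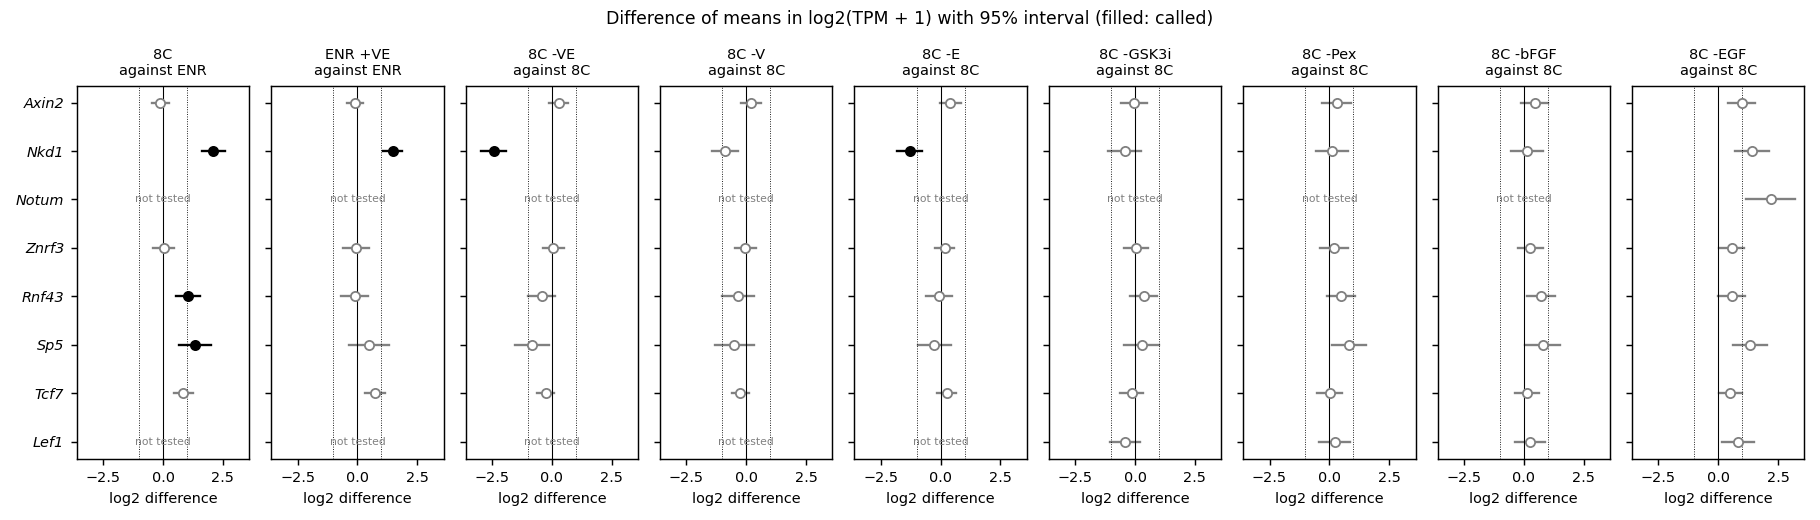
Difference of means in log2(TPM + 1), horizontal axis, with 95% intervals for each gene in 9 comparisons of organoid conditions, where filled points were called and dotted lines mark a 2-fold change. Nkd1 is called in 4 panels, with a rise of 2.10 in 8C against ENR and a fall of 2.43 when both inhibitors are left out, and no point is filled when the GSK3 inhibitor is left out.

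VPA and EPZ6438 were then left out of the 8C medium, singly and together, to ask which members depended on them. Nkd1 and, with no minimum mean, Lef1 were the members called lower when both were left out. Without both inhibitors, 1 of 6 tested members was called (10.7% of 12622 genes were called, 9.06% lower), and it was Nkd1. Nkd1 ranged from 0.397 to 2.02 TPM (median 1.06) in 8C -VE, below every 8C library, as for 9.17% of genes, and fell by 2.43 (SE 0.25, adjusted p = 1.6e-06). Lef1 was at 0.0213 to 0.0963 TPM (median 0.0258) in 8C -VE, also below every 8C library, and with no minimum mean the difference of -1.12 was called (adjusted p = 2.3e-04, where 5.82% of genes were called lower).

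With 1 of the inhibitors present, Nkd1 was intermediate, at 3.22 to 7.43 TPM (median 4.57) in 8C -V and at 2.33 to 6.06 TPM (median 2.80) in 8C -E. Both ranges lay above that of 8C -VE without overlap, as for 3.71% and 4.27% of genes, with differences of 1.53 (SE 0.23, adjusted p = 5.3e-04) for 8C -V and 1.13 (SE 0.22, adjusted p = 0.00298) for 8C -E. In these comparisons 2.96% and 3.11% of genes were called higher, and Nkd1 was the member called in each. With quantile normalization the difference for 8C -E was 0.96 and was not called.

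Against the full 8C medium, Nkd1 fell by 1.29 without EPZ6438 (SE 0.24, adjusted p = 0.00225, the only member called, where 4.2% of genes were called and 3.97% lower). Without VPA its difference was -0.89 (SE 0.25, adjusted p = 0.0300), under the 2-fold limit, where 5.2% of genes were called and none of the 6 members tested, of which only Nkd1 had an unadjusted p under 0.05, as did 25.4% of all genes. The ranges of 8C -V and 8C -E each overlapped that of 8C. With the replicate number as a block, which the data pair here, that difference was -1.01 and was called (adjusted p = 0.00954). The interaction of VPA and EPZ6438 on Nkd1 was -0.24 (SE 0.34, adjusted p = 1.0), so a departure from additive effects on the log2 scale was not detectable.

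Among the 8C media, Lef1 was lowest in those without VPA. It was listed at 0 in 4 of 6 libraries of 8C -V and at no more than 0.0238 TPM in the other 2, whereas 8C -E held 0.209 to 0.940 TPM (median 0.388). The ranges of 8C -V and 8C -E did not overlap, but this pair was not compared over all genes, so no share stands beside it. With no minimum mean Lef1 differed from 8C by -1.17 in 8C -V (adjusted p = 0.00111, called, as were 2.5% of genes lower) and by -0.68 in 8C -E (adjusted p = 0.0505). Within numbers 4 to 6 the Lef1 difference in 8C -E was -1.10 and was called (adjusted p = 0.0110), where 737 genes were. 8C -E exceeded 8C -VE by 0.44 (adjusted p = 0.00548), less than 2-fold. Lef1 was too low for the interaction to be tested.

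Paneth cell markers moved along with the inhibitors. Their summed level was 9663 to 15282 TPM in 8C -VE, 7082 to 9854 TPM in 8C -V and 3842 to 8632 TPM in 8C -E, against 1174 to 4760 TPM in 8C, and 5, 6 and 2 of the 6 markers were called higher. Summed stem cell markers were 1714 to 3310 TPM in 8C -VE and 885 to 2338 TPM in 8C, where Olfm4 was the marker called (5.93) and the median difference of the 6 was 0.09. The part of these markers in the differences of Nkd1 and Lef1 was not tested.

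None of the abundant members was called on leaving out both inhibitors. Axin2 averaged 120 ± 22.5 TPM (SD, n = 7) in 8C -VE, and its difference from 8C was 0.29 (95% interval -0.11 to 0.69, adjusted p = 0.309). Sp5 averaged 47.2 ± 22.4 TPM (SD, n = 7) in 8C -VE and differed by -0.84 (SE 0.33, adjusted p = 0.0819), with overlapping ranges. Rnf43 differed by -0.42 and Tcf7 by -0.26, with adjusted p values of 0.275 and 0.264. Tcf7 was higher in 8C -E (median 58.9 TPM) than in 8C -VE (median 39.0 TPM) by 0.51 (adjusted p = 0.0220), less than 2-fold. Compared with ENR, 8C -VE showed none of the 6 tested members called (3.19% of 11990 genes were called, and Rnf43 and Tcf7 had an unadjusted p under 0.05, as did 22.4% of all genes), and Tcf7 differed by 0.59 (SE 0.14, adjusted p = 0.0121).

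The inhibitors were also added to the ENR medium. Again Nkd1 rose, from 0.871 to 2.26 TPM in ENR to 5.73, 6.18 and 6.54 TPM in the 3 ENR +VE libraries. The ranges did not overlap, as for 19.6% of genes, and the difference was 1.47 (SE 0.18, adjusted p = 1.4e-04), the only call among 6 tested members, where 8.13% of 12324 genes were called higher. Tcf7 measured 37.7, 42.6 and 45.02 TPM, 0.73 higher than in ENR (SE 0.18, adjusted p = 0.0159) and under 2-fold. Lef1 measured 0.157, 0.234 and 0.403 TPM, above every ENR library, with a difference of 0.32 when no minimum mean was set (adjusted p = 0.00115). Notum, too low to be tested, also averaged higher, at 0.597 to 0.984 TPM in ENR +VE and 0.0878 to 0.706 TPM in ENR, with overlap. Rnf43 was not among them, at 38.4, 49.2 and 54.8 TPM (difference -0.11, 95% interval -0.68 to 0.46). The effect of the inhibitors on Nkd1 was 0.96 larger in the 8C medium than in the ENR medium (limma interaction, adjusted p = 0.439), which did not pass. Summed Paneth cell markers were 4832 to 5132 TPM in ENR +VE, below the 11549 to 13994 TPM of ENR, with 3 of 6 called lower, and summed stem cell markers 2042 to 2466 TPM, below the 2483 to 3876 TPM of ENR. That sum was carried by Olfm4, which fell from a mean of 2500.5 to 1095 TPM (-1.18, called), while Mex3a was called higher (1.18) and the median of the 6 stem cell markers was 0.34. The part of these markers was not tested.

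8C and ENR +VE both contain VPA and EPZ6438, at doses not given for ENR +VE, and EGF at 50 ng/mL. Both contain R-Spondin 1, as conditioned medium in 8C and at 500 ng/mL in ENR +VE, and the other components differ. Here 1 of 7 tested members was called (3.87% of 12856 genes were called, 1.45% higher), Rnf43, by 1.15 (SE 0.27, adjusted p = 0.0278). The Rnf43 ranges overlapped. The call was lost without ENR +VE replicate 1, 2 or 3 (differences of 1.18, 1.26 and 1.01) and without 8C replicate 6 (1.06). It was also lost within replicate numbers 1 to 3 (0.75) and with the replicate block (0.75). The difference within 8C numbers 4 to 6 was 1.57. Sp5 differed by 0.84 (SE 0.33, adjusted p = 0.230) and Lef1 by 0.85 (SE 0.28, adjusted p = 0.121). Both had an unadjusted p under 0.05, as did 14.7% of all genes, and both were called within 8C numbers 4 to 6, at 1.23 and 1.26, where 8.5% of genes were. Nkd1 differed by 0.63 (95% interval -0.02 to 1.27, adjusted p = 0.365). Summed Paneth cell markers were 1174 to 4760 TPM in 8C and 4832 to 5132 TPM in ENR +VE, without overlap, with Defa24 called (-1.92). Summed stem cell markers overlapped, with Olfm4 called (-5.64), and the part of these markers was not tested.

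Leaving out the GSK3 inhibitor tested a component aimed at the Wnt pathway, with R-Spondin 1 still present. The labels do not give how long any component was left out, and the study reports that organoids needed this inhibitor for continuous passage. None of the 7 members tested was called by limma, and none of all 12806 genes (0%). At an unadjusted p under 0.05 there were 836 genes (6.53%) and 0 members. The count over all genes was 904 against 8C numbers 1 to 3 and 7 against numbers 4 to 6, 725 with the replicate block and 91 with a block that sets each library beside the 8C number 3 above its own. Axin2 measured 76.0, 98.4 and 109 TPM in 8C -GSK3i, inside the range of 8C, a log2 difference of -0.04 (95% interval -0.59 to 0.51, adjusted p = 0.983). The interval leaves room for a fall of up to 0.59.

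The other brakes overlapped their 8C ranges too. Nkd1 measured 4.77, 8.64 and 8.85 TPM, of which 1 library was below the lowest of 8C, and differed by -0.43 (95% interval -1.12 to 0.26, adjusted p = 0.800). Rnf43 measured 128, 139 and 141 TPM and differed by 0.37 (95% interval -0.21 to 0.94, adjusted p = 0.795). Znrf3 differed by 0.04 (95% interval -0.47 to 0.56, adjusted p = 0.980), and Notum measured 0.551, 0.670 and 0.721 TPM.

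Sp5 measured 74.5, 87.9 and 122 TPM without the GSK3 inhibitor, a difference of 0.28 (95% interval -0.46 to 1.01, adjusted p = 0.875). Tcf7 differed by -0.14 (95% interval -0.61 to 0.34) and Lef1, at 0.593, 0.694 and 0.826 TPM, by -0.42 (95% interval -1.03 to 0.19, adjusted p = 0.783). The values turned on which 8C libraries stood as controls. Against 8C numbers 1 to 3, Nkd1 differed by -0.77 (adjusted p = 0.0683) and Rnf43 by 0.76 (adjusted p = 0.0563). Against numbers 4 to 6, Nkd1 differed by -0.33 (adjusted p = 0.899), Rnf43 by -0.05 (adjusted p = 0.951) and Lef1 by -0.82 (adjusted p = 0.344). No alternative called a member.

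EGF omission gave the highest organoid mean of 7 of the 8 genes, without a call in the pairwise test. Notum measured 2.02, 5.58 and 24.8 TPM in 8C -EGF, against at most 1.14 TPM in the 7 8C libraries. The 3 libraries were all above 8C, the highest of them far above the other 2. The difference was 2.19 (SE 0.48, adjusted p = 0.0704), and 1.35 without the highest library. Nkd1 measured 19.7, 27.5 and 42.7 TPM and differed by 1.42 (SE 0.33, adjusted p = 0.0842). Axin2 measured 155, 180.4 and 249.4 TPM and differed by 0.98 (SE 0.26, adjusted p = 0.131).

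Sp5 measured 187, 187 and 199.9 TPM without EGF and differed by 1.31 (SE 0.32, adjusted p = 0.108). For these 4 genes no 8C library reached the lowest 8C -EGF library, where 5.28% of all 12849 genes were higher without overlap. None of the 8 tested members was called, and 0.451% of all genes were. At an unadjusted p under 0.05 there were 7 members, the exception being Rnf43, and 12.7% of all genes. Znrf3 differed by 0.57, Rnf43 by 0.56, Tcf7 by 0.51 and Lef1 by 0.82, with adjusted p values of 0.291 to 0.413. In a fit of all 10 conditions, which shares their spread, Nkd1 (adjusted p = 0.00130) and Notum (adjusted p = 4.4e-06) were called, where 1.19% of genes were. Within 8C numbers 1 to 3 Sp5 was called (1.32, adjusted p = 0.00182), where 453 genes were called, and against numbers 4 to 6 Nkd1 was (1.53, adjusted p = 0.0444), where 341 were, beside 58 with all 7 controls. Summed Paneth cell markers were 5789 to 6700 TPM in 8C -EGF and summed stem cell markers 2124 to 3111 TPM, mostly above the 8C ranges, and their part was not tested.

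Omission of Pexmetinib or bFGF called no member (0.482% and 0.00779% of genes were called). At an unadjusted p under 0.05 there was Sp5 without Pexmetinib (13% of genes), and Rnf43 and Sp5 without bFGF (5.56% of genes). Sp5 measured 119.8, 140.1 and 150.5 TPM in 8C -Pex and differed by 0.83 (SE 0.33, adjusted p = 0.314). Rnf43 measured 169, 174 and 178 TPM in 8C -bFGF, above every 8C library, and differed by 0.72 (SE 0.26, adjusted p = 0.831), where 1.68% of genes were higher without overlap. Against 8C numbers 1 to 3 the Rnf43 difference was 1.11 and was called (adjusted p = 0.0215), where 705 genes were called, and against numbers 4 to 6 it was 0.30 (adjusted p = 0.815), where 1 gene was called, as with all 7 controls.

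Replicate numbers marked sets of libraries that differed in some members and not in others (the plot by replicate number). Rnf43 in numbers 4 to 6 exceeded numbers 1 to 3 without overlap in all 5 conditions that have both, with ratios of means of 1.66 to 2.68. In ENR it averaged 36.6 ± 1.88 TPM (SD, n = 3) in numbers 1 to 3 and 60.7 ± 5.77 TPM (SD, n = 3) in numbers 4 to 6, and in 8C -V 50.8 ± 5.73 TPM (SD, n = 3) and 136 ± 26.5 TPM (SD, n = 3). Sp5 did so in 4 of the 5 conditions, with ratios of 1.95 to 3.21, and Nkd1 in 3. Axin2, Znrf3 and Tcf7 did so in none, with ratios between 0.748 and 1.31. Over all genes, the share higher in numbers 4 to 6 without overlap was 17.5% in ENR, 15.6% in 8C, 19.9% in 8C -V, 19.2% in 8C -E and 22.4% in 8C -VE. The labels do not say what the numbers stand for. In the deposited column order, the libraries of 8C -GSK3i, 8C -Pex, 8C -EGF and 8C -bFGF stand among numbers 4 to 6 of the other conditions. Comparing them with all 8C libraries, or ranking condition means, may therefore mix set with condition.

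The calls of 8C against ENR held inside each set. Within numbers 1 to 3 the differences were 1.11 for Rnf43 (adjusted p = 0.0112) and 1.77 for Sp5 (adjusted p = 1.4e-04), and within numbers 4 to 6 they were 1.21 (adjusted p = 4.0e-05) and 1.02 (adjusted p = 0.0182). Nkd1 without EPZ6438 differed by -1.90 within numbers 1 to 3 (adjusted p = 6.5e-04) and by -0.76 within numbers 4 to 6 (adjusted p = 0.108, not called), and whether the sets differ in this was not tested.

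**Figure D3:**
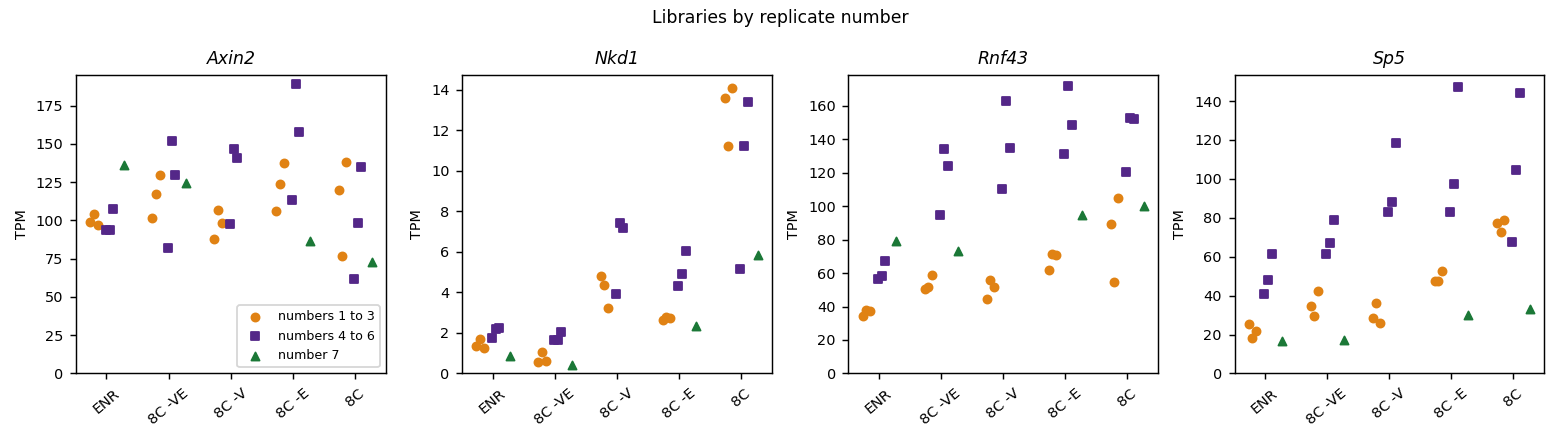
TPM of 4 genes (vertical axis) in the 5 conditions with 6 or 7 libraries, split by replicate number. Rnf43 is higher in numbers 4 to 6 (squares) than in numbers 1 to 3 (circles) in all 5 conditions, whereas the numbers overlap for Axin2.

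Members varied together in part. Over the 49 organoid libraries, which share conditions and replicate sets, Pearson correlations of log2(TPM + 1) were 0.82 between Axin2 and Znrf3, 0.83 between Nkd1 and Lef1, 0.83 between Rnf43 and Sp5 and 0.80 between Nkd1 and Sp5, but 0.31 between Axin2 and Nkd1. Of 11792 genes, those most like Axin2 were Zfp180 and Elf2 (both 0.85), Znrf3, Zbtb39 (0.82) and Zfp146 (0.80). Znrf3 was thus the member nearest to Axin2.

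The rest of the Wnt pathway was counted by lists, beside 11.9% of all genes called higher and 3.31% lower and a median difference over all genes of 0.08. Between 8C and ENR, 1 of 4 tested Wnt ligands (Wnt5a, 4.39 against 0.0219 TPM) and 2 of 3 tested genes of ligand secretion and R-spondins (Wls, which escorts Wnt ligands, and Rspo4) were called higher. Of 16 receptors 4 were higher and 1 lower, with log2 differences of 2.15 for Fzd3, 1.93 for Fzd1, 1.34 for Ptk7 and -1.35 for Fzd5, and their median was 0.63. Of 7 further inhibitors 4 were higher and 1 lower, with differences of 3.06 for Apcdd1, 2.08 for Wif1, 1.91 for Sfrp2, which is listed at 0 in ENR, and -2.79 for Sfrp5, and their median was 1.59. None of 15 genes of the destruction complex and its transducers was called (median 0.03). Of 10 nuclear partners Tcf7l1, mostly a repressor of Wnt targets, was higher (2.21), and of 18 other crypt targets Tnfrsf19 (3.53), Bambi (1.35) and Cd44 (1.06) were higher and Rgmb (-1.03) lower, with a median of 0.61.

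Leaving out VPA and EPZ6438, in a comparison that shares the 8C libraries with the last, called 9.06% of all genes lower and 1.62% higher, with a median of -0.01. Lower were 1 of 4 ligands, Wnt5a (-2.23), 2 of 3 genes of ligand secretion and R-spondins, Wls (-1.004) and Rspo4 (-1.45), and 3 of 16 receptors, Fzd3 (-2.19), Fzd1 (-2.13) and Fzd8 (-1.03). None of the 15 genes of the destruction complex and its transducers was called (median 0.10). Of the inhibitors 4 of 7 were lower, Apcdd1 (-2.14), Sfrp2 (-1.89), Sfrp1 (-1.54) and Wif1 (-1.40), as were 2 of 10 nuclear partners, Tcf7l1 (-2.11) and Tle2 (-1.08). Of 18 other crypt targets Tnfrsf19, a receptor of crypt base cells, was lower (-2.0003) and Rgmb higher (1.03). Leaving out the GSK3 inhibitor called no gene of any list.

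In crypts the question was how the members changed after irradiation and whether gavage with VPA and EPZ6438 altered this. Axin2 was lowest on day 3. It measured 7.65 and 16.5 TPM in normal crypt, 10.0 and 2.30 TPM on day 1, 4.75 and 3.79 TPM on day 2, 0.498 and 0.350 TPM on day 3 and 11.5 and 7.17 TPM on day 5. Only 4 members, Axin2, Rnf43, Sp5 and Tcf7, had a mean of 1 TPM or more, and the 18 libraries entered one fit. Much of the transcriptome moved at the same time. On day 3, 53.5% of 10411 genes were called lower, with a median log2 difference over all genes of -1.08, and mitochondrial genes took 37.9% and 48.4% of the summed TPM, against 12.7% and 18.1% in normal crypt. Genes at 1 TPM or more numbered 8152 and 8564 in IR day 3, against 10606 and 11089 in normal crypt. Quantile normalization brought that median to -0.01, and the values of members on that scale are given beside their differences.

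On day 3, 2 of the 4 members were called lower, a share near that of all genes. Axin2 fell by 3.11 (SE 0.46, adjusted p = 4.5e-05), and by 2.31 with quantile normalization and 1.97 with the trend with transcript length removed, and was called in all 13 alternatives. Rnf43 measured 1.17 and 3.23 TPM, below the 7.59 and 7.67 TPM of normal crypt, as 79.7% of genes were below it, and fell by 1.51 (SE 0.44, adjusted p = 0.00644). The Rnf43 difference was -0.32 with quantile normalization and -1.15 without mitochondrial genes, neither called, and the call was also lost without IR day 3 replicate 1. Sp5 differed by -0.18 (adjusted p = 0.465) as deposited and by 1.08 with quantile normalization (adjusted p = 0.00146), and Tcf7 by -0.45 (adjusted p = 0.153) and 0.74 (adjusted p = 0.00637), so the direction of both depended on the scaling.

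On day 2, 1 of 4 members was called (27.6% of genes were called lower, with a median of -0.64). Axin2 fell by 1.23 (SE 0.46, adjusted p = 0.0359), with both libraries below normal crypt, as for 66.2% of genes, but by 0.54 with quantile normalization, which was not called. Sp5 measured 7.61 and 6.39 TPM against 3.06 and 4.60 TPM, a difference of 0.74 (SE 0.22, adjusted p = 0.0105) that was under 2-fold as deposited and 1.41 and called with quantile normalization. The Axin2 call was also lost without normal crypt replicate 2 (difference of -0.72) and without IR day 2 replicate 1 (-1.36) or replicate 2 (-1.10). On days 1 and 5 none of the 4 was called, where 7.59% and 16.2% of genes were, and at an unadjusted p under 0.05 there was Axin2 on day 1 (34.1% of all genes) and 0 members on day 5 (39.8% of all genes). With quantile normalization none of the 4 was called on those days either, where 524 of 10727 genes were on day 1 and 1357 of 11016 on day 5.

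Marker levels of several cell types moved with irradiation. Summed stem cell markers were 231 to 432 TPM in normal crypt, 15.0 to 19.7 TPM on day 2 and 16.8 to 22.3 TPM on day 3, with 3 of 4 tested called lower on each day. Summed markers of B and plasma cells were 102 to 161 TPM in normal crypt, 5.20 to 10.4 TPM on day 2 and 4.50 to 7.85 TPM on day 3, with all 3 tested called lower. Summed Paneth cell markers were 12438 to 30414 TPM in normal crypt and 13397 to 23854 TPM on day 3, with overlap, but 6393 to 9526 TPM on day 2, where Lyz1 (-1.73), Defa24 (-1.41) and Defa17 (-1.09) were called lower. The part of these markers, and of the lower number of genes at 1 TPM or more on day 3, in the fall of Axin2 and Rnf43 was not tested.

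**Figure D4:**
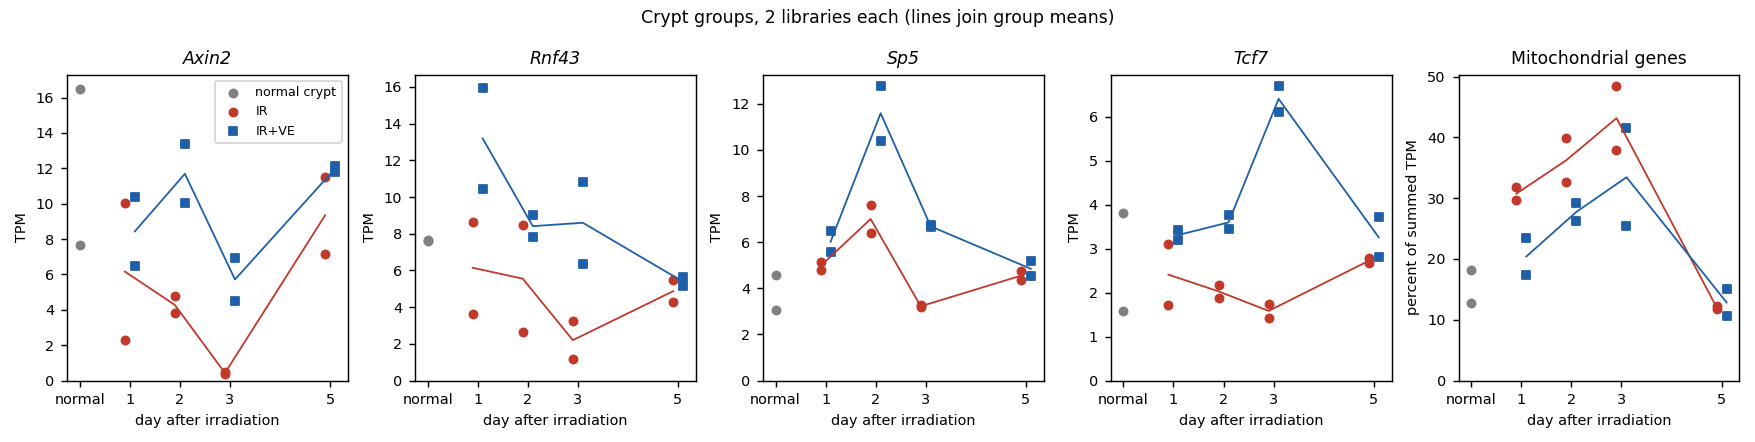
TPM of 4 genes (vertical axes) and the percent of summed TPM in mitochondrial genes in normal crypt (grey) and on days 1, 2, 3 and 5 after irradiation (horizontal axis), without (circles) and with (squares) VPA and EPZ6438, for 2 libraries a group. Axin2 is lowest in IR day 3, at 0.350 and 0.498 TPM, where the mitochondrial percent is highest, and lies at 4.49 and 6.94 TPM in IR+VE day 3.

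VPA and EPZ6438 were followed by higher levels on day 3 in 3 of the 4 members, in a comparison where 33.4% of 10050 genes were called higher and the median difference was 0.71. Axin2 measured 6.94 and 4.49 TPM in IR+VE and rose by 2.21 over IR (SE 0.46, adjusted p = 0.00146), and by 1.68 with quantile normalization. It was called in all 12 alternatives, in which the smallest rise was 1.27. Tcf7 measured 6.12 and 6.70 TPM against 1.42 and 1.74 TPM and rose by 1.52 (SE 0.28, adjusted p = 6.7e-04), but by 0.59 with quantile normalization, under 2-fold. Rnf43 measured 10.8 and 6.35 TPM and rose by 1.62 (SE 0.44, adjusted p = 0.00664), with a difference of 0.74 after quantile normalization that was not called, and the call was lost without replicate 1 of either group. Sp5 differed by 0.86 (adjusted p = 0.00420) as deposited and by -0.12 with quantile normalization. No group overlapped for any of the 4 genes, as for 71% of all genes in that direction.

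Other measures of the crypt samples are set beside these values. Mitochondrial genes took 25.4% and 41.5% in IR+VE day 3. Genes at 1 TPM or more numbered 10692 and 10712 in IR+VE day 3 and 8152 and 8564 in IR day 3. Summed epithelial markers were 4914 to 5148 TPM in IR+VE day 3 and 2351 to 3573 TPM in IR day 3, and summed stem cell markers 34.7 to 51.3 TPM and 16.8 to 22.3 TPM, with a median difference of 0.71 over the 4 tested, near that of all genes, and Slc12a2 called higher (1.83). Summed Paneth cell markers were 24655 to 35247 TPM in IR+VE day 3 and 13397 to 23854 TPM in IR day 3, without overlap, and none of the 6 was called. Summed T and NK cell markers, which bear on Tcf7 and Lef1 as genes of T cells too, overlapped, at 60.6 to 80.2 TPM in IR+VE day 3 and 45.7 to 126 TPM in IR day 3, and 7 and 6 of the 10 markers averaged at least 1 TPM in the 2 groups. The part of these markers, of the mitochondrial share and of the number of genes at 1 TPM or more in the values was not tested.

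On days 1, 2 and 5 none of the 4 members was called between IR+VE and IR, where 0.00945%, 9.51% and 0.056% of genes were. At an unadjusted p under 0.05 there was Rnf43 on day 1, Axin2, Sp5 and Tcf7 on day 2, and 0 members on day 5, where 13.7%, 38.9% and 2.12% of all genes passed. On day 2 Axin2 measured 10.0 and 13.4 TPM in IR+VE and 4.75 and 3.79 TPM in IR, a difference of 1.26 (SE 0.46, adjusted p = 0.0649). Tcf7 differed by 0.60 and Sp5 by 0.65, with adjusted p values of 0.125 and 0.0514. All genes moved by a median of 0.45 in this comparison and by -0.02 after quantile normalization, which left a difference of 0.69 for Axin2 (adjusted p = 0.296), 0.06 for Tcf7 and 0.09 for Sp5. The 975 genes called by limma as deposited became 0 with quantile normalization, with mitochondrial genes removed and with the length trend removed, where 2112, 2749 and 1873 genes had an unadjusted p under 0.05. A dependence of the treatment effect on the day was not shown for any of the 4, with adjusted p values of 0.187 for Axin2 and 0.116 for Tcf7.

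The other 4 members were at most 1.31 TPM in every crypt library. Nkd1 was 0.589 and 0.877 TPM in normal crypt, 0.0386 and 0.0997 TPM in IR day 3 and 0.616 and 0.458 TPM in IR+VE day 3. Znrf3 was 0.506 and 1.31 TPM, 0.0558 and 0.146 TPM, and 0.596 and 0.425 TPM in the same groups. Both genes were lowest in IR day 3 among these 3 groups and were too low to be tested. Lef1 was at most 0.779 TPM and Notum at most 0.303 TPM.

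Of other pathway genes on day 3 against normal crypt, beside the 53.5% of all genes called lower and their median of -1.08, 4 of 7 receptors were lower (median -1.07), with differences of -3.15 for Fzd5, -2.37 for Lrp5, -2.13 for Lrp6 and -1.07 for Lgr4. Of 12 genes of the destruction complex and its transducers 10 were lower (median -1.41), among them Dvl1 (-2.55), Dvl3 (-2.20), Gsk3a (-1.96) and Axin1 (-1.73), and of 8 nuclear partners 7 were (median -1.22), among them Tle4 (-2.12), Tcf7l2 (-1.83), Tle3 (-1.65) and Bcl9 (-1.28). Of 3 further inhibitors Sfrp5 (-2.67) and Kremen1 (-1.22) were lower. Of 13 other crypt targets 8 were lower (median -1.30), led by Smoc2 (-2.78), Zfp703 (-2.07), Rgmb (-1.84) and Cdca7 (-1.67), and Cd44 was higher (1.19). These counts depended on the scaling. Over all genes, 2667 of 10411 were called in either direction with quantile normalization. With quantile normalization 3 receptors (Fzd5, Lrp5 and Lrp6, at -2.26, -1.26 and -1.31), 2 genes of the destruction complex and its transducers (Dvl1 and Dvl3, at -1.32 and -1.44), 2 nuclear partners (Tle4 and Tcf7l2, at -1.13 and -1.04), Sfrp5 (-2.32) and Smoc2 (-1.57) were still lower, while Lgr4 was at 0.16 and the list medians ran from -0.49 to 0.16. On that scale Cd44 (2.36), Ccnd1 (1.37), Ptk7 (1.295) and Kremen2 (1.04) were called higher. Over the 18 crypt libraries the genes whose pattern was most like that of Axin2 were Brd1, Midn, Cux1, Brpf3 and Dctn1, with correlations of 0.975 to 0.980 among 10321 genes.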

How the data were processed

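Per the study's methods and processing notes, reads were trimmed (Trimmomatic 0.39), aligned to mm10 (STAR 2.7.3a) and assigned to genes (featureCounts), and the authors deposited TPM for 67 libraries in one table. How TPM were derived, the annotation and strand are not given in the sources used here. Here log2(TPM + 1) was analysed with limma 3.58.1 in R 4.3.3 (eBayes, trend and robust), per pair of organoid conditions and, for crypts, in a single fit, restricted to a mean of 1 TPM or more, with Benjamini-Hochberg adjustment over all genes tested and intervals at 95%. The added 1 draws differences of low genes toward 0. Groups came from the labels and no library was left out. The 8 members, all lists and the 21 comparisons were chosen with earlier results of these data known. Members were followed in every comparison, and of each pathway list the 4 called genes of largest difference, at most, were named in 4 comparisons. The genes most like Axin2 are the 5 of highest correlation, predicted genes skipped. Alternatives changed the pseudocount (0.1), the scaling (quantile normalization, mitochondrial genes removed), the minimum (5 TPM, or none), the fold limit, the eBayes options, the libraries (one left out, replicate numbers 1 to 3 or 4 to 6, all conditions in a fit) and the replicate block. Removal of a length trend, a crossed block and pathway lists on the quantile scale were added after seeing the data. Same-numbered libraries deviated together, with a correlation over 0.1 in every pair, for 4 organoid comparisons (8C -VE with ENR, 8C -V with 8C, and 8C -E and 8C -V with 8C -VE), with lowest correlations of 0.106 to 0.690. In 8C -VE and 8C -E with 8C the lowest was 0.0564 and 0.0433. The fits were run on simulated data with independent noise and known changes. Those data held no replicate sets and no shift of scale, so they checked the code and not these features. Promoters came from RefSeq and gene models from GENCODE.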

Additional observations from a re-analysis of the deposited data

Results flagged for a closer look

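Within groups of 4 to 10 libraries, 40 sets of values of the members were searched for a library whose gap to the others is large for the range of its group (Dixon's criterion at 95%), and 4 were found, where chance gives about 1 in 20. All 4 are replicate 7 of their condition. Axin2 measured 137 TPM in ENR replicate 7, and the other 6 libraries 93.9 to 107 TPM. Tcf7 measured 39.5 TPM in the same library, and the others 20.3 to 25.9 TPM. Notum measured 1.501 TPM in 8C -VE replicate 7, and the others 0.0879 to 0.360 TPM. Lef1 measured 0.940 TPM in 8C -E replicate 7, and the others 0.209 to 0.520 TPM. Leaving out the replicate 7 libraries is among the alternatives. Mitochondrial genes took 4.69% to 6.64% of the summed TPM in the replicate 7 libraries of ENR, 8C, 8C -E and 8C -VE, and at most 3.81% in any other organoid library. Whether that share bears on these values was not tested.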

How the results depend on the processing

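No call of a member reversed its direction under any alternative that was run. The calls of Nkd1 and Sp5 in 8C against ENR and of Nkd1 on leaving out both inhibitors held in all 25 alternatives, those of Axin2 on day 3 in all 13 against normal crypt and in all 12 of IR+VE against IR. The number of members called moved by over 1.5 times, or from or to 0, in the cases that follow, and where no value above shows why, the cause was not tested. With a pseudocount of 0.1 it was 1 in 8C -V against 8C (0 as reported) and 2 in 8C against ENR +VE (1 as reported). With quantile normalization it was 0 in 8C -E against 8C -VE (1 as reported) and 1 in IR+VE against IR on day 3 (3 as reported), and with mitochondrial genes removed 1 in IR day 3 against normal crypt (2 as reported). With the length trend removed it was 1 in each of the last 2 comparisons. With a minimum mean of 5 TPM, which removes members from the test, it was 0 in 8C -E and in 8C -V against 8C -VE and in ENR +VE against ENR, and 1 in both day 3 comparisons. With no minimum mean it was 2 in 8C -VE against 8C and 1 in 8C -V against 8C, where Lef1 enters, and 0 in 8C against ENR +VE and in IR day 2. With no minimum fold it was 1 in 8C -VE against ENR and in 8C -V against 8C, and 2 in 8C -E against 8C -VE, in ENR +VE against ENR and in IR day 2. With all conditions in one fit it was 2 in 8C -EGF against 8C. Within replicate numbers 1 to 3 it was 2 in 8C -VE and in 8C -V against 8C, 0 in 8C against ENR +VE, and 1 in 8C -EGF and in 8C -bFGF against 8C. Within numbers 4 to 6 it was 2, 1, 3 and 1 in the first 4 of these. Smaller moves were from 3 to 4 in 8C against ENR with no minimum mean, with no minimum fold and within either set of numbers, and in IR+VE against IR on day 3 with a pseudocount of 0.1 and with no minimum fold. The number stayed but the members changed in 8C -E against 8C within numbers 4 to 6 (Lef1 in place of Nkd1), in IR day 2 with quantile normalization, mitochondrial genes removed or the length trend removed (Sp5 in place of Axin2) and in IR day 3 with quantile normalization (Sp5, higher, in place of Rnf43, lower).

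Leaving out 1 library gave 2 to 3 members in 8C against ENR, 1 to 2 in 8C -VE and 0 to 1 in 8C -V against 8C, 0 to 2 in 8C against ENR +VE, 0 to 1 in 8C -EGF against 8C, 0 to 1 in IR day 1 and in IR day 2, 1 to 2 in IR day 3, 0 to 2 in IR+VE against IR on day 1 and 2 to 3 on day 3, with no change in the other 11 comparisons. Without 8C replicate 7, Sp5 was called in 8C -VE against 8C (-1.03), in 8C against ENR +VE and in 8C -EGF against 8C (1.12), and Nkd1 in 8C -V against 8C (-1.01), where it was also called without 8C replicate 4 (-1.03). Sp5 was further called in 8C -EGF without 8C replicate 6 (1.47) and Notum without 8C -EGF replicate 2 (2.89). Without IR day 1 replicate 1, Axin2 was called on day 1 in both comparisons and Rnf43 in IR+VE against IR. Crypt groups then hold 1 library, which is assumed to vary like the other groups of the fit.

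With the replicate block, where the numbers pair the libraries, the number was 1 in 8C -V against 8C, and no other call changed. Elsewhere libraries share only a number, and with the block it was 0 in 8C against ENR +VE and 1 in 8C -EGF and in 8C -bFGF against 8C. Libraries of the omission conditions deviated more with the 8C number 3 above their own, and with that block 1 member was called in 8C -EGF against 8C. Crossing the numbers of the irradiated group, in which same-numbered libraries had opposite deviations, left 0 members on day 1 and 1 on day 2.

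TPM without read numbers gives no limit of detection, which bears most on Lef1 and Notum. Groups of 2 or 3 libraries give wide intervals, and the crypt values depend on a scaling that a mitochondrial share of up to 48.4% moves.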
